A study of Homo sapiens with 12 samples.

Results

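The stretch described here is the run of chromosome 3 genes that begins at TRNT1 and ends at ARL6IP5, in the order of the deposited count table, which follows the genome. It was selected on the knockout-to-control ratios of these same libraries, which ran low along it, so those ratios are given as a description and are not tested. The members are the genes of that run with a mean of at least 5 CPM (counts scaled to the size of the library) over all 12 libraries. They number 304 of the 11424 genes that pass this minimum, and of 1090 table entries in the run, 308 of which had no count in any library. A further 337 genes of chromosome 3 pass the minimum, all of them beyond ARL6IP5, and serve as the comparison.

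Messenger RNA had been sequenced from NT2/D1, an established line of human embryonal carcinoma whose pluripotent cells differentiate under all-trans retinoic acid (ATRA). The 4 groups, with 3 libraries each, were CRISPR/Cas9 control cells untreated, CRISPR/Cas9 control cells with 1 µM ATRA for 3 days, cells with a CRISPR/Cas9 deletion of PRMT6 untreated, and cells with the same deletion given the same ATRA. PRMT6 is an arginine methyltransferase of histone H3 and other proteins. The sample names give 1 knockout line only (KO-2), so the deletion of PRMT6 cannot be told apart from anything else that came with that line. Nor do they state that replicate libraries were grown as separate cultures. The spread behind every p-value may therefore be technical.

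The short arm of chromosome 3, where this stretch lies, is a region of frequent loss in human carcinomas and carries well-known tumour suppressor genes, among them VHL, BAP1, PBRM1 and SETD2. It also carries CTNNB1, the effector of canonical WNT signalling, and RARB, a retinoic acid receptor gene that retinoic acid itself switches on through a direct repeat in its promoter. The table holds RNA counts only, and DNA was not analysed here.

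The promoters of the genes on either side of the far end, of the first gene, and of 3 members among the lowest and highest ratios are shown because the description turns on them. They are the 250 bases before the RefSeq start site on GRCh38.p14, read 5′ to 3′ along the gene, and 262 of the 304 members have such a sequence in the RefSeq table. Capitals mark the NF-Y box CCAAT, the ETS factor site CCGGAAG and the SP1 box GGGCGG on either strand, with overlapping matches joined. In RARB alone they mark the direct repeat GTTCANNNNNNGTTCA, also searched on both strands. TRNT1 opens the stretch (chr3:3126690-3126939, plus strand), ARL6IP5 closes it (chr3:69084687-69084936, plus strand) and FRMD4B is the next gene of at least 5 CPM beyond it (chr3:69386089-69386338, minus strand). SEMA3F (chr3:50154808-50155057, plus strand) was among the 5 members with the lowest ratio, and LMCD1 (chr3:8501573-8501822, plus strand) and RARB (chr3:25428013-25428262, plus strand) were among the 5 with the highest.

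TRNT1: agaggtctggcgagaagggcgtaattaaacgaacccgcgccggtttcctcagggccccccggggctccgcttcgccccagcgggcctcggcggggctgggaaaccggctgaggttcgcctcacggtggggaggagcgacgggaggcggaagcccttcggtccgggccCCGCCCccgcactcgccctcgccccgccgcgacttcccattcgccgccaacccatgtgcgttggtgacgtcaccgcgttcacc

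ARL6IP5: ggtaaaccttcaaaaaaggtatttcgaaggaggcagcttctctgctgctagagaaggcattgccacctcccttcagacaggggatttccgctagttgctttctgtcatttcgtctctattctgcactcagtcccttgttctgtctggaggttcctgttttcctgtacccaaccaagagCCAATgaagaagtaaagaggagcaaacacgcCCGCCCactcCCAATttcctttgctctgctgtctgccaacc

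FRMD4B: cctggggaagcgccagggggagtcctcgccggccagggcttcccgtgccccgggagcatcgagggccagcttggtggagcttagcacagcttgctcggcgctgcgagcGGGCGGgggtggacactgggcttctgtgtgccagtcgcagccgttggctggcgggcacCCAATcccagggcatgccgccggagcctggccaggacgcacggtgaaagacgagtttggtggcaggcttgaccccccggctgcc

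SEMA3F: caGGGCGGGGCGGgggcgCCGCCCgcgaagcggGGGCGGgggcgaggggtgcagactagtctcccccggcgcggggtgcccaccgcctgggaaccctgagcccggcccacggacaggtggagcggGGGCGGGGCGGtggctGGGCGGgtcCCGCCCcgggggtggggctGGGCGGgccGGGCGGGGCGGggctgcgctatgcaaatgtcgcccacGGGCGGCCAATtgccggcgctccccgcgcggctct

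LMCD1: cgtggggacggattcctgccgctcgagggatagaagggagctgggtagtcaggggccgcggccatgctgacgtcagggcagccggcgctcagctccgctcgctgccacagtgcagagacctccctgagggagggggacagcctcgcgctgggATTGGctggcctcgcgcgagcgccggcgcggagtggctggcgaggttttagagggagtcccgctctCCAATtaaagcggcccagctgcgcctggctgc

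RARB: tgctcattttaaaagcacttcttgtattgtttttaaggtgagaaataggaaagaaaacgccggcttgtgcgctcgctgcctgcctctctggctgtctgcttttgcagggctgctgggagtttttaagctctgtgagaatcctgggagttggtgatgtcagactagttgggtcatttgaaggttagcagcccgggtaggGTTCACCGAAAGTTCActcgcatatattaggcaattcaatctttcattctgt

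CCAAT was held by 31.1% of the members' 376 promoters, by 31.9% of 457 promoters on the rest of chromosome 3 and by 32.01% of all 35116 promoters in the table. CCGGAAG was held by 15.2%, 10.7% and 8.52%, and GGGCGG by 65.2%, 59.96% and 42.6%, in the same order. The RARB repeat was in 17 of all promoters (0.0484%), and RARB was the 1 member to hold it. The members' promoters had a median GC content of 66%, against 63.2% on the rest of the chromosome and 58% over all promoters. Such matches describe the letters only.

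Some properties of the libraries bear on every value below. Total counts ran from 25.5 to 60.4 M, at which 3 counts are 0.118 and 0.0497 CPM. PRMT6 stood at 2.15 CPM in control untreated 2, the lowest of the controls, at 8.84 to 29.2 CPM in the other 5 controls and at 0 to 0.0565 CPM in the knockout libraries. All 8 pluripotency markers (POU5F1, NANOG, SOX2 and others) passed the CPM minimum. Knockout untreated 1 and 2, and knockout ATRA 1 and 3, were nearly identical, with chi-square values of 9.01 and 1.91 per gene where the remaining within-group pairs had 78.1 to 416. Relative expression rose with gene GC content in the knockout libraries (rank correlation across genes 0.23 to 0.62) and fell with it in all controls but 1 (-0.50 to 0.10). The members are richer in GC than the rest of chromosome 3, with a median of 48.9% against 42.8%. That trend was therefore removed from each library, after which the correlation was at most 0.0408 in size, and every CPM below is GC-adjusted unless said otherwise.

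Fibroblast markers also moved with genotype. Of 8 (COL3A1, COL1A1, COL1A2, DCN, LUM, FAP, THY1 and PDGFRB), 6 were called higher in the untreated knockout and 2 with ATRA. The background for that direction was 8.95% and 3.2%. The 8 summed to 537 to 587 CPM in the untreated control and 1948 to 12285 CPM in the untreated knockout. With ATRA the sums were 299 to 1490 CPM in the control and 2067 to 11959 CPM in the knockout. THY1 went the other way (log2 ratios -0.44 untreated and -0.61 with ATRA, not called). In control untreated 2 it was at 514 CPM, where COL3A1 was at 2.38 CPM. The list's median log2 level, centred per gene over the 12 libraries, was -2.98 there and -1.83 to -0.33 in the other 5 controls. COL3A1, a fibrillar collagen gene, was at 1123 and 1516 CPM in knockout untreated 3 and knockout ATRA 2 and at 9213 to 9904 CPM in the other 4 knockout libraries. Endoderm markers were higher as well, with 5 of 5 tested called in the untreated knockout and 2 with ATRA, beside the same background. Only 3 of the 5 reached a mean of 5 CPM, and AFP averaged 0.22 CPM. The endoderm sums were 7.85 to 11.7, 71.4 to 76.1, 8.54 to 47.4 and 74.1 to 108.8 CPM in the same order of groups. Of 6 neuron markers, 3 (NEFL, NEFM and SNAP25) were called higher in the knockout in both states and TUBB3 was called lower with ATRA, while the sums were 171 to 457, 348 to 367, 438 to 590.2 and 410.4 to 425 CPM. The pluripotency markers summed to 3029 to 5236, 2771 to 4699, 2141 to 3987 and 1447 to 2408 CPM. Of these 8, 5 had knockout-to-control ratios below 0 untreated and 6 with ATRA. Only SOX2 was called, lower in both states (log2 ratios -2.15 untreated and -2.22 with ATRA). SOX2 lies on chromosome 3 beyond ARL6IP5. NANOG went the other way, with 0.34 untreated and 1.90 with ATRA, and was not called. In bulk RNA, fewer cells of a type and less RNA per cell cannot be told apart. Without the 2 knockout libraries low in COL3A1, the stretch differed from the rest of the chromosome by -0.25 untreated and -0.51 with ATRA. With them the differences were -0.26 and -0.49. The knockout libraries kept were all high in COL3A1, so this cannot show what part the fibroblast markers play. They were also the near-identical pairs, so each knockout group then held little more than 1 distinct library. The part of the fibroblast, endoderm and neuron markers in the results was not tested.

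The level of the stretch in a library was taken as the median over members of the log2 CPM, each gene centred on its mean over the 12 libraries, minus the same median over the rest of chromosome 3. In the control it was 0.36, -0.25 and 0.23 untreated and 0.30, 0.22 and 0.32 with ATRA, for replicates 1 to 3. In the knockout it was -0.19, -0.15 and -0.18 untreated and -0.23, -0.22 and -0.22 with ATRA. All 6 knockout libraries and 5 of the 6 control libraries thus fell into groups that did not overlap, and control untreated 2 lay with the knockouts. The group means were 0.11 ± 0.32 (SD, n = 3) and -0.17 ± 0.02 untreated, and 0.28 ± 0.05 and -0.22 ± 0.01 with ATRA, control first. In each state 2 of the 3 knockout libraries were nearly identical, so the knockout SDs rest on fewer distinct libraries than n = 3.

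**Figure D1:**
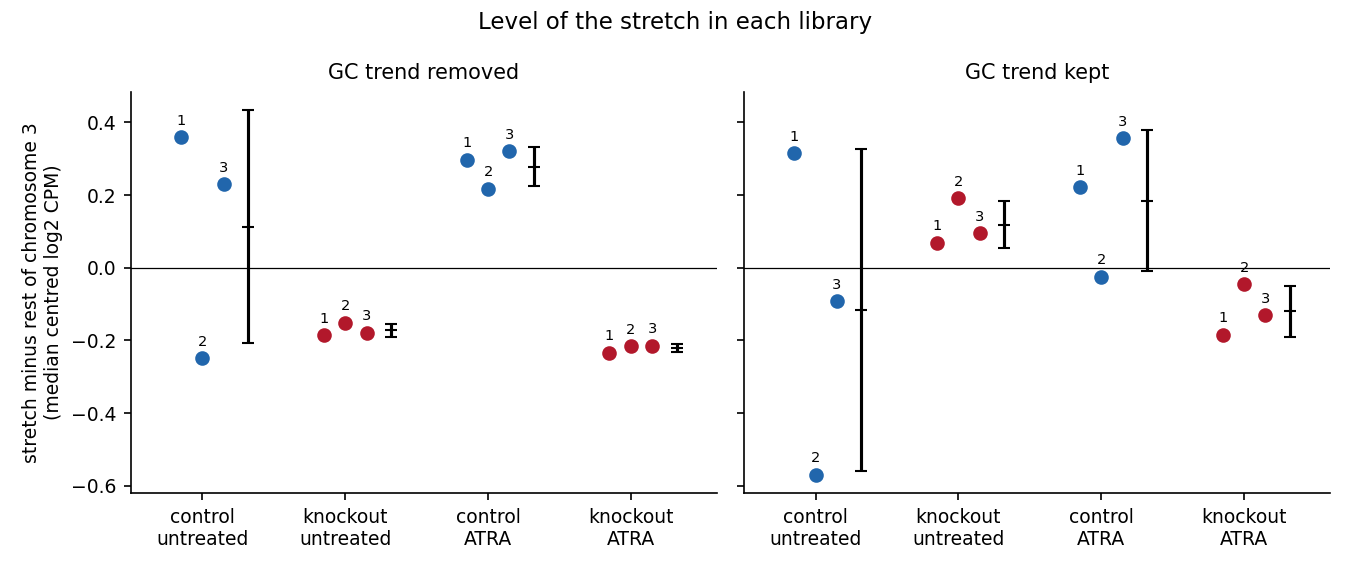
Level of the stretch relative to the rest of chromosome 3 in each of the 12 libraries (points, numbered by replicate; blue control, red knockout), with the mean and SD of each group (n = 3) beside them, after removal of the GC trend (left) and before it (right). On the left the 6 knockout libraries lie between -0.23 and -0.15 and 5 controls between 0.22 and 0.36, with control untreated 2 at -0.25; on the right knockouts and controls overlap.

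Over the members the fitted log2 ratio of knockout to control had a median of -0.33 untreated and -0.50 with ATRA, which is 79.7% and 70.5% of the control level. On the rest of chromosome 3 the medians were -0.07 and -0.02, and over all other chromosomes 0.03 and 0.01. The latter include a run on chromosome 2 from ACP1 to POLR2D (410 genes), with medians of -0.48 and -0.52. In that run 78.3% and 83.2% of genes were below 0, so a low run was not particular to chromosome 3. Ratios below 0 were found for 222 of 304 members (73.0%) untreated and for 270 (88.8%) with ATRA, against 55.5% and 52.8% of the rest of chromosome 3. In both states 216 members were lower and 28 higher in the knockout, and 60 changed side. The difference between stretch and rest was -0.26 untreated and -0.49 with ATRA. Without control untreated 2 the untreated difference was -0.46, with a members' median of -0.49 and 244 members below 0.

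The GC trend decides the sign of the untreated value. Without its removal the stretch stood 0.26 above the rest of chromosome 3 in the untreated knockout, and 0.28 below it with ATRA (difference -0.28). The per-library levels then overlapped, from -0.19 to 0.19 in the knockouts and from -0.09 to 0.36 in the 5 controls other than control untreated 2, which was at -0.57. Left uncorrected and without control untreated 2, the untreated difference was -0.02. Comparing uncorrected members only with chromosome 3 genes of similar GC content, in 5 bins, gave -0.18 untreated, -0.40 untreated without control untreated 2, and -0.46 with ATRA, each an average over the bins. The untreated difference ran from -0.34 to 0.07 over the bins, and the 40 to 45% bin, with 64 members, was the one above 0. Without control untreated 2, and with ATRA, all 5 bins were below 0.

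Among members tested one by one with edgeR over all genes (Benjamini-Hochberg, adjusted p under 0.05), 55 were called lower and 7 higher in the untreated knockout. The background among all genes of at least 5 CPM was 8.9% lower and 8.95% higher, against 18.1% and 2.30% of the members. With ATRA 58 members (19.1%) were called lower and 1, LMCD1, higher (0.329%), against a background of 3.87% and 3.2%. In both states 38 members were called lower. Summing each near-identical knockout pair into 1 library left 2 calls in each state (0.658%, background 0.779% untreated and 0.516% with ATRA). Leaving out knockout ATRA 1 or knockout ATRA 3 left 8 with ATRA (2.63%, background 1.48% and 1.38%). Since these contrasts chose the stretch, nothing is read from those counts.

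The same holds for counts of genes whose libraries did not overlap. The 3 knockout libraries all lay below the 3 controls for 91 members (29.9%) untreated, where the background was 17.5%, and for 159 (52.3%) with ATRA, where it was 15.3%. With control untreated 2 left out, all 6 knockouts lay below the 5 controls for 83 members (27.3%; background 5.72%). Placing control untreated 2 with the knockouts gave 54 members (17.8%; background 2.09%), and 0 of the 337 other chromosome 3 genes.

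Along the stretch the lower level ran from end to end. In windows of 25 members (29 in the last), the median ratio was below 0 in 12 of 12 windows in both states, from -0.40 to -0.07 untreated and from -0.73 to -0.31 with ATRA. The lowest with ATRA was the window from GPX1 to RASSF1, with 24 of 25 members below 0. The window closest to 0 when untreated was the last, from APPL1 to ARL6IP5, with 15 of 29 members below 0 (20 of 29 with ATRA). Per library, 70 of 72 window medians were below 0 in the knockouts and 1 of 60 in the 5 controls, and in 11 of the 12 windows all 6 knockouts lay below all 5 controls. Beyond ARL6IP5 this was so in 0 of 13 windows. Median ratios below 0 were not confined to the stretch, with 11 of those 13 windows below 0 untreated and 7 with ATRA. They ran from -0.50 to 0.28 untreated, so the lowest was under every window of the stretch, and from -0.35 to 0.31 with ATRA.

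**Figure D2:**
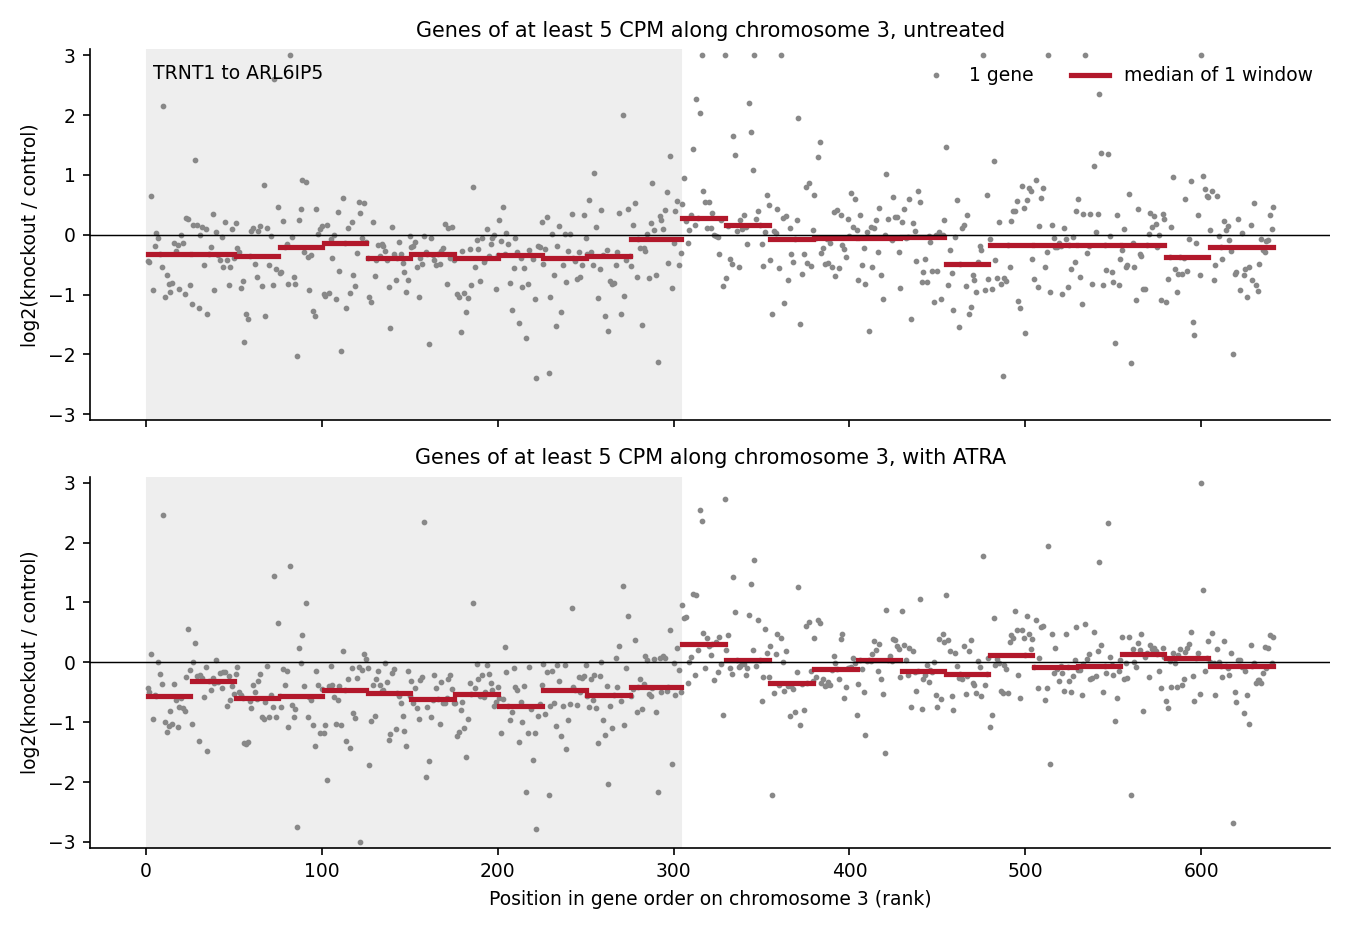
Log2 ratio of knockout to control (vertical axis) for each of the 641 genes of at least 5 CPM in order along chromosome 3 (horizontal axis, rank), untreated above and with ATRA below, with the stretch shaded and the median of each window as a red line; 11 values beyond 3 are drawn at the edge. All 12 red lines in the shaded part lie below 0 in both panels, and the first line after it lies at 0.28 untreated and 0.31 with ATRA. Of the 13 lines after it, 11 lie below 0 untreated and 7 with ATRA.

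The far end was not sharp gene by gene. ARL6IP5, an endoplasmic reticulum membrane protein gene, had log2 ratios of -0.30 ± 0.36 untreated and -0.50 ± 0.36 with ATRA (SE). Just inside it, UBA3, the catalytic subunit of the NEDD8-activating enzyme, had -0.50 ± 0.19 untreated and -0.13 ± 0.19 with ATRA, and TMF1, a Golgi protein gene, had 0.56 ± 0.32 untreated and 0.25 ± 0.32 with ATRA. Just outside, FRMD4B, a FERM domain scaffold gene, had 0.51 ± 0.51 untreated and 0.96 ± 0.52 with ATRA, FOXP1, a forkhead repressor gene, 0.94 ± 0.31 untreated and 0.74 ± 0.31 with ATRA, and EIF4E3, a cap-binding protein gene, 0.23 ± 0.36 untreated and 0.76 ± 0.37 with ATRA. The last members are therefore mixed, and the first 3 genes outside were all above 0. FRMD4B stood at 8.45, 8.91 and 17.04 CPM in the untreated control, 21.9, 16.5 and 10.6 in the untreated knockout, 6.14, 11.9 and 5.96 in the control with ATRA and 21.8, 4.81 and 20.3 in the knockout with ATRA. Its groups overlapped in both states. The first window beyond the end, from FRMD4B to FILIP1L, had medians of 0.28 and 0.31.

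At the near end the table holds 1 tested gene of chromosome 3 before TRNT1, and none of at least 5 CPM, so no gene marks a border there. TRNT1, which adds the CCA end to transfer RNAs, stood at 6.48, 5.54 and 8.04 CPM in the untreated control, 3.46, 4.70 and 6.72 in the untreated knockout, 8.26, 7.47 and 6.87 in the control with ATRA and 5.48, 6.26 and 5.13 in the knockout with ATRA. Its knockout and control libraries overlapped untreated and did not overlap with ATRA (log2 ratio -0.43 ± 0.27 untreated and -0.42 ± 0.27 with ATRA). CRBN, the substrate receptor of a CUL4 ubiquitin ligase, stood at 10.1, 10.2 and 13.6 CPM in the untreated control, 8.89, 9.74 and 6.13 in the untreated knockout, 11.4, 11.1 and 10.2 in the control with ATRA and 8.37, 6.37 and 8.30 in the knockout with ATRA. All 6 knockout libraries were below all 6 controls, with log2 ratios of -0.45 ± 0.23 untreated and -0.50 ± 0.23 with ATRA. The next member, SUMF1, which activates sulfatases, went the other way (0.65 ± 0.29 untreated and 0.14 ± 0.29 with ATRA).

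Control untreated 2 departed from the other controls over more of chromosome 3 than the stretch. Its window medians were below 0 in 10 of 12 windows of the stretch, as low as -0.37. They stayed below 0 for the next 4 windows, 100 genes from FRMD4B to HEG1, at -0.48 to -0.39, and in none of those 4 did the knockouts all lie below the other 5 controls. They were above 0 in all 9 windows from SLC12A8 to the end, at 0.09 to 0.78. The other 11 libraries ranged from -0.27 to 0.38 in the windows beyond the stretch. It lay nearer to the knockout mean than to the mean of the other 5 controls for 175 of 304 members (57.6%), against 32.9% of the rest of chromosome 3 and 35.7% of genes on other chromosomes. On chromosome 16 its median was also low, at -0.43, with -0.22 to 0.13 on the other chromosomes. On the other long run of lower genes in the knockout, on chromosome 2 from ACP1 to POLR2D, it stood at 0.26 beside controls of 0.01 to 0.28 and knockouts of -0.27 to -0.18. Its low value in the stretch thus does not end where the knockouts' does, and results on untreated cells are given with and without it where it moves them.

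**Figure D3:**
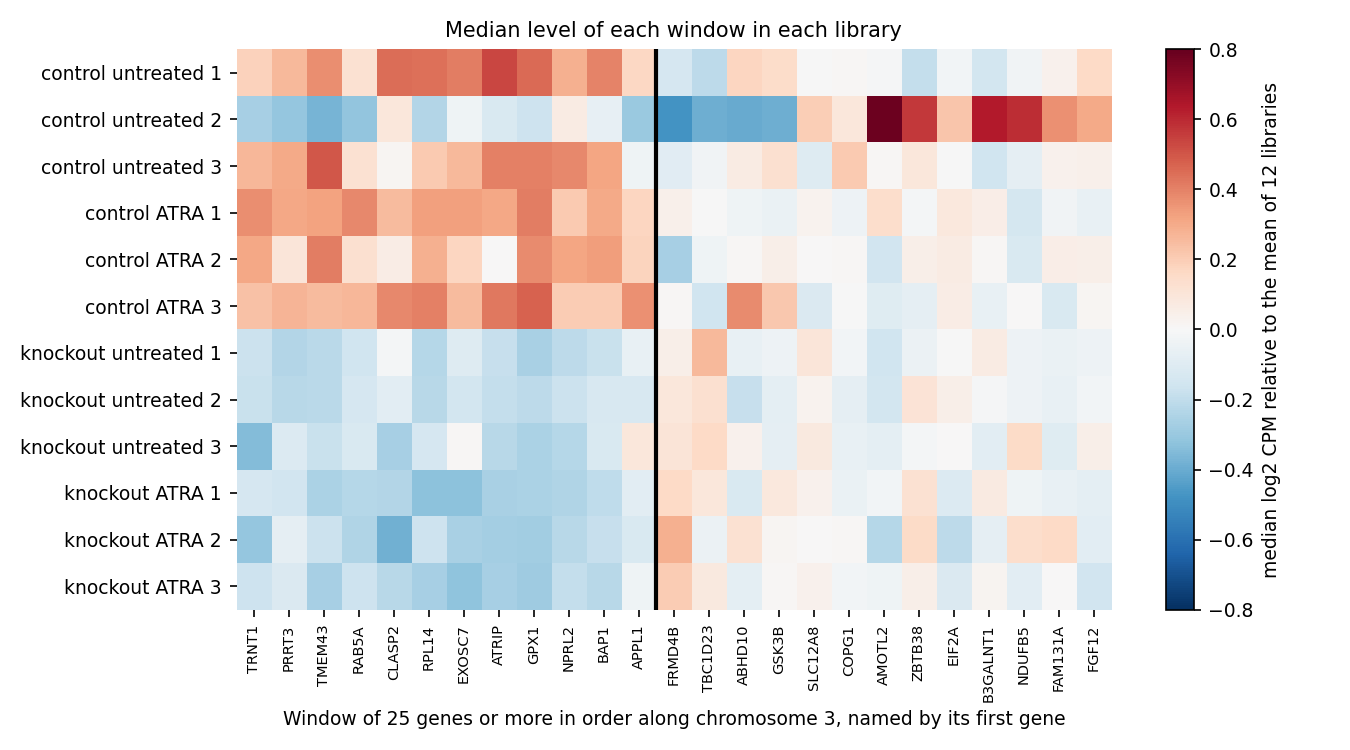
Median log2 CPM of each window of at least 25 genes relative to the mean of the 12 libraries (colour), in order along chromosome 3 (horizontal axis, each window named by its first gene) for each library (vertical axis); the black line marks the end of the stretch. Left of the line 70 of 72 knockout values are below 0 (blue) and 59 of 60 values of 5 controls above it (red); control untreated 2 is blue in 10 of 12 windows there and in the next 4, and red from SLC12A8 on.

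Genes of DNA repair are taken first. All 8 members on the DNA repair list (FANCD2, RAD18, XPC and others) had ratios below 0 in both states, with medians of -0.36 and -0.82, and 2 and 4 of them were called lower, where the background for that direction was 8.9% and 3.87% of all genes. The list's median level was -0.43 to -0.13 in the knockouts, 0.32 to 0.43 in the 5 controls and -0.25 in control untreated 2. FANCD2, the monoubiquitinated centre of the Fanconi anaemia pathway for DNA crosslinks, stood at 59.1, 31.6 and 82.6 CPM in the untreated control, 24.01, 22.5 and 27.4 in the untreated knockout, 30.4, 56.02 and 35.1 in the control with ATRA and 15.8, 17.4 and 15.7 in the knockout with ATRA. Every knockout library was below every control library, and the log2 ratios were -1.23 ± 0.32 untreated and -1.31 ± 0.32 with ATRA. XPC, which recognizes helix-distorting damage, overlapped in both states (-0.22 ± 0.23 untreated and -0.08 ± 0.23 with ATRA).

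Among 16 chromatin regulators the medians were -0.28 untreated and -0.61 with ATRA, with 12 and 15 below 0 and 2 and 3 called lower (12.5% and 18.8%, beside the same background). SMARCC1, a core subunit of the BAF remodelling complex, stood at 378, 189.9 and 303 CPM in the untreated control, 211, 212 and 199 in the untreated knockout, 322, 355 and 249 in the control with ATRA and 149.99, 149 and 151 in the knockout with ATRA. With ATRA the groups did not overlap, and untreated they overlapped only through control untreated 2 (ratios -0.48 ± 0.23 untreated and -1.04 ± 0.23 with ATRA). Of 17 other BAF subunit genes, which lie elsewhere, 3 were below 0 untreated and 9 with ATRA, with medians of 0.17 and -0.07. BAP1, a histone H2A deubiquitinase, stood at 173, 114 and 153 CPM in the untreated control, 119.6, 115 and 116 in the untreated knockout, 186, 149 and 193 in the control with ATRA and 119, 120.3 and 117 in the knockout with ATRA. Its 6 knockout libraries lay below 5 controls, and control untreated 2 was below all of them (-0.33 ± 0.18 untreated and -0.56 ± 0.18 with ATRA). PBRM1, of the PBAF complex, and SETD2, which methylates H3K36, had ratios near 0 untreated and lower ones with ATRA: 0.12 ± 0.34 untreated and -0.77 ± 0.34 with ATRA for PBRM1, and -0.05 ± 0.32 untreated and -0.92 ± 0.32 with ATRA for SETD2. TADA3, an adaptor of histone acetyltransferase complexes, had -0.01 ± 0.19 untreated and -0.60 ± 0.19 with ATRA, and WDR82, a subunit of SET1 methyltransferase complexes, 0.33 ± 0.36 untreated and -0.23 ± 0.36 with ATRA.

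The list of 19 genes known as tumour suppressors or candidates on this arm had medians of -0.26 and -0.56, with 14 and 18 below 0. It holds HYAL1, a lysosomal hyaluronidase gene with the lowest ratio of all members when both states are averaged (with ATRA alone XIRP1 was lower, at -3.31). HYAL1 stood at 11.1, 4.05 and 11.4 CPM in the untreated control, 1.63, 1.60 and 1.84 in the untreated knockout, 8.59, 14.3 and 11.9 in the control with ATRA and 1.57, 1.53 and 1.93 in the knockout with ATRA. All 6 knockouts were below all 6 controls, 5.23-fold lower untreated and 6.91-fold with ATRA (log2 ratios -2.39 ± 0.38 untreated and -2.79 ± 0.38 with ATRA). Its neighbour HYAL2, which encodes a membrane-anchored hyaluronidase, stood at 109.9, 63.03 and 73.96 CPM in the untreated control, 68.5, 74.98 and 74.1 in the untreated knockout, 135, 141 and 119 in the control with ATRA and 73.9, 63.7 and 74.5 in the knockout with ATRA. It was 1.86-fold lower with ATRA, without overlap, and overlapped untreated (-0.18 ± 0.20 untreated and -0.90 ± 0.20 with ATRA). VHL, the substrate receptor for hypoxia-inducible factors, was at 52.3, 30.3 and 42.6 CPM in the untreated control, 42.3, 46.02 and 48.6 in the untreated knockout, 88.2, 61.1 and 63.3 in the control with ATRA and 60.3, 56.9 and 59.6 in the knockout with ATRA, with ratios of 0.13 ± 0.22 untreated and -0.27 ± 0.21 with ATRA, and was among the members that were not lower in untreated cells. FBLN2, a matrix fibulin gene, had 0.10 ± 0.32 untreated and -0.40 ± 0.32 with ATRA.

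Axon guidance genes held another of the lowest ratios. SEMA3F encodes a secreted semaphorin. Its promoter above, 1 of 3 that RefSeq lists for the gene, carries 12 matches to GGGCGG. SEMA3F stood at 40.4, 34.95 and 90.7 CPM in the untreated control and 15.3, 16.1 and 18.8 in the untreated knockout. With ATRA it stood at 60.9, 58.7 and 68.7 in the control and 13.7, 14.8 and 13.2 in the knockout. The groups did not overlap in either state, and it was 3.31-fold lower untreated and 4.51-fold with ATRA (-1.73 ± 0.31 untreated and -2.17 ± 0.31 with ATRA). The related semaphorin gene SEMA3B had ratios of -0.26 ± 0.35 untreated and -0.08 ± 0.35 with ATRA. PLXNB1, a semaphorin receptor, had -0.40 ± 0.31 untreated and -0.21 ± 0.31 with ATRA.

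The other 3 of the 5 lowest average ratios among members with names other than clone, LINC or antisense names were NBEAL2, CACNA2D2 and PRKCD. AC098973.2 and LINC00698, left out for their names, averaged -2.39 and -2.15, below NBEAL2 and PRKCD. NBEAL2, a gene for a granule-forming BEACH protein, stood at 43.6, 29.9 and 51.6 CPM in the untreated control, 10.7, 11.1 and 13.5 in the untreated knockout, 26.99, 30.2 and 29.8 in the control with ATRA and 7.95, 12.1 and 7.75 in the knockout with ATRA, without overlap. CACNA2D2, an auxiliary calcium channel subunit, stood at 94.5, 82.2 and 89.3 CPM in the untreated control, 17.3, 17.2 and 18.95 in the untreated knockout, 14.4, 74.4 and 34.1 in the control with ATRA and 8.84, 8.50 and 9.01 in the knockout with ATRA. Its knockouts were below the controls of the same state throughout, but control ATRA 1 was below the untreated knockouts. PRKCD, protein kinase C delta, stood at 84.2, 25.5 and 96.9 CPM in the untreated control, 18.03, 15.1 and 34.9 in the untreated knockout, 38.3, 89.8 and 46.2 in the control with ATRA and 11.6, 19.03 and 11.99 in the knockout with ATRA, and control untreated 2 lay inside the knockout range. The log2 ratios were -1.83 ± 0.25 untreated and -1.65 ± 0.25 with ATRA for NBEAL2, -2.31 ± 0.43 untreated and -2.22 ± 0.43 with ATRA for CACNA2D2 and -1.61 ± 0.50 untreated and -2.03 ± 0.50 with ATRA for PRKCD.

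**Figure D4:**
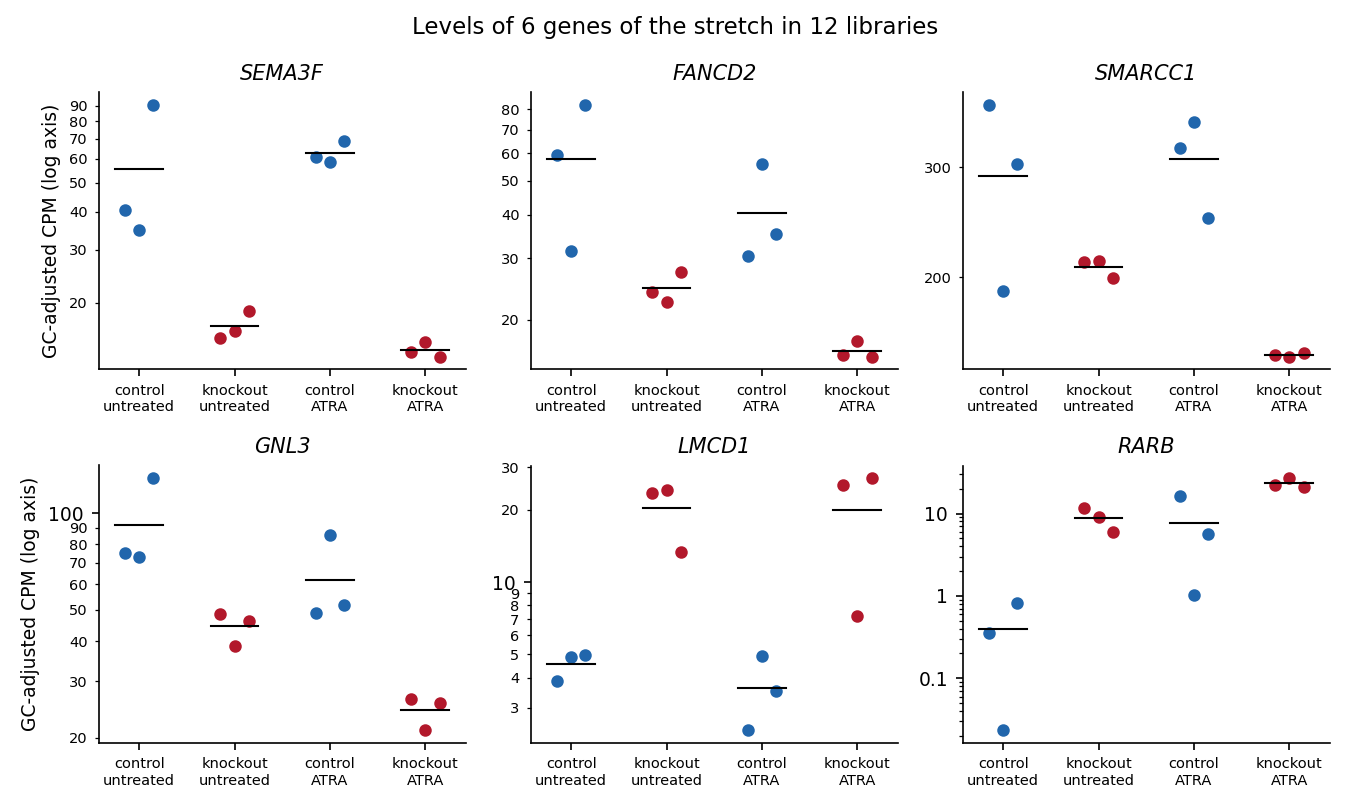
GC-adjusted CPM (log axis) of 6 members in each library (points; blue control, red knockout), with each group's mean as a line. SEMA3F, FANCD2 and GNL3 are lower in every knockout library than in every control of the same state; LMCD1 and RARB are higher in the knockouts of each state, without exception.

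Signalling members were divided. The list of 9 WNT, TGF-beta and FGF pathway genes had medians of -0.05 and -0.44, with 7 and 5 below 0. CTNNB1, beta-catenin, stood at 893, 252 and 486 CPM in the untreated control, 311, 295 and 407 in the untreated knockout, 457, 522 and 927 in the control with ATRA and 283, 457 and 279 in the knockout with ATRA. The groups overlapped in both states (ratios -0.69 ± 0.41 untreated and -0.90 ± 0.41 with ATRA). IL17RD, a brake on FGF signalling, had -0.36 ± 0.30 untreated and -0.55 ± 0.30 with ATRA. TGFBR2, the type II TGF-beta receptor, was higher in knockout untreated 1 and 2, at 11.3 and 11.9 CPM, than in knockout untreated 3, at 4.02 CPM, and its ratios were 0.91 ± 0.48 untreated and 0.46 ± 0.48 with ATRA. WNT5A, a ligand of non-canonical WNT signalling, was among the highest ratios and stood at 16.5, 10.99 and 9.49 CPM in the untreated control, 39.7, 51.3 and 56.7 in the untreated knockout, 43.2, 11.99 and 29.2 in the control with ATRA and 73.9, 59.9 and 69.99 in the knockout with ATRA. Every knockout library was above every control of the same state (1.999 ± 0.38 untreated and 1.27 ± 0.38 with ATRA).

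Other members with the highest ratios also ran against the stretch. LMCD1, a LIM domain repressor of GATA6, stood at 3.88, 4.87 and 4.96 CPM in the untreated control, 23.6, 24.3 and 13.3 in the untreated knockout, 2.42, 4.92 and 3.51 in the control with ATRA and 25.5, 7.21 and 27.1 in the knockout with ATRA. It was higher in all 6 knockouts than in all 6 controls (2.16 ± 0.45 untreated and 2.46 ± 0.46 with ATRA), and its highest values were in the 4 knockout libraries that were high in COL3A1. RFTN1, a lipid raft protein gene, followed the same division, with 11.7, 1.42 and 5.42 CPM in the untreated control, 50.4, 49.6 and 12.5 in the untreated knockout, 11.9, 3.35 and 31.4 in the control with ATRA and 58.5, 11.9 and 56.7 in the knockout with ATRA. Whether these levels come from the same cells as the fibroblast markers was not tested. EOMES, a mesendoderm regulator that lies in the stretch but misses the CPM minimum, had ratios of 4.19 ± 0.66 untreated and 3.14 ± 0.69 with ATRA. The 77 genes of the stretch at 1 to 5 CPM, which the rule leaves out, had medians of -0.61 and -0.63, against -0.13 and 0.16 for 120 such genes on the rest of the chromosome.

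RARB had the highest ratio of all members when untreated. It stood at 0.353, 0.0234 and 0.828 CPM in the untreated control, 11.7, 9.15 and 5.99 in the untreated knockout, 16.4, 1.03 and 5.62 in the control with ATRA and 22.4, 26.9 and 20.7 in the knockout with ATRA. In untreated cells the 3 knockouts were at least 5.99 CPM and the controls at most 0.828 CPM, with control untreated 2 the lowest at 0.0234 CPM, under the level of 3 counts. With ATRA the controls spread from 1.03 to 16.4 CPM and the knockouts from 20.7 to 26.9 CPM. The log2 ratios were 4.43 ± 1.01 untreated and 1.61 ± 0.88 with ATRA. The promoter printed above, 1 of 4 that RefSeq lists for the gene, has its direct repeat beginning 52 bases before the start site. The other nuclear receptor members differed from it: NR1D2, the clock repressor REV-ERB beta, had -0.82 ± 0.38 untreated and -1.07 ± 0.38 with ATRA, and NR2C2, an orphan receptor, 0.07 ± 0.34 untreated and -0.77 ± 0.34 with ATRA.

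Lineage regulators in the stretch numbered 5, with medians of -0.02 and 0.07. TDGF1, the NODAL co-receptor Cripto that marks pluripotent cells, stood at 38.1, 142 and 85.02 CPM in the untreated control, 59.5, 60.5 and 141 in the untreated knockout, 1.03, 11.9 and 2.71 in the control with ATRA and 16.9, 44.2 and 18.8 in the knockout with ATRA. Untreated knockouts and controls overlapped, and with ATRA every knockout was above every control (-0.02 ± 0.73 untreated and 2.34 ± 0.78 with ATRA). GNL3, nucleostemin, a nucleolar GTPase of stem cells, stood at 75.02, 72.8 and 129 CPM in the untreated control, 48.7, 38.7 and 46.04 in the untreated knockout, 48.8, 85.6 and 51.7 in the control with ATRA and 26.4, 21.1 and 25.7 in the knockout with ATRA. It was lower in every knockout than in every control (2.07-fold untreated and 2.54-fold with ATRA, log2 -1.05 ± 0.27 untreated and -1.35 ± 0.27 with ATRA). BHLHE40, a helix-loop-helix repressor, had -0.05 ± 0.25 untreated and 0.00 ± 0.25 with ATRA.

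Housekeeping members follow. The translation list of 17 genes had medians of -0.22 and -0.34, and the 16 mitochondrial genes -0.05 and -0.23, with 9 and 12 below 0. The ribosomal protein genes RPSA, RPL32 and RPL15 had 0.53 ± 0.32 untreated and 0.14 ± 0.32 with ATRA, 0.22 ± 0.23 untreated and -0.17 ± 0.23 with ATRA, and -0.15 ± 0.20 untreated and -0.14 ± 0.20 with ATRA. Genes of ribosomal proteins have many processed copies in the genome, which may share reads. UQCRC1, of respiratory complex III, stood at 319.6, 238 and 251 CPM in the untreated control, 209, 212 and 252 in the untreated knockout, 369, 349 and 319 in the control with ATRA and 213, 229 and 216 in the knockout with ATRA, 1.58-fold lower with ATRA without overlap and overlapping untreated (-0.26 ± 0.17 untreated and -0.66 ± 0.17 with ATRA). PDHB, of pyruvate dehydrogenase, had 0.01 ± 0.25 untreated and 0.04 ± 0.25 with ATRA, and LARS2, the mitochondrial leucyl-tRNA synthetase, -0.11 ± 0.24 untreated and -0.44 ± 0.24 with ATRA. Splitting the members into 3 groups of near-equal size by mean CPM gave medians of -0.39, -0.38 and -0.26 untreated and -0.56, -0.48 and -0.44 with ATRA, from the lowest CPM to the highest. The interquartile range narrowed over the same groups, from 0.93 to 0.46 untreated and from 0.76 to 0.49 with ATRA.

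The 14 genes of the ubiquitin system had medians of -0.34 in both states, with 11 and 13 below 0. ARIH2, an E3 ligase, had -0.54 ± 0.20 untreated and -0.42 ± 0.20 with ATRA, and USP19, a deubiquitinase, -0.36 ± 0.23 untreated and -0.20 ± 0.23 with ATRA. The 16 genes of trafficking and the cytoskeleton had medians of -0.20 and -0.53. RHOA, the small GTPase of stress fibres, stood at 1039.6, 373 and 471 CPM in the untreated control, 568, 588 and 597 in the untreated knockout, 1371, 1215 and 1492 in the control with ATRA and 606, 572 and 630.1 in the knockout with ATRA. The untreated groups overlapped, and with ATRA the knockouts were 2.26-fold lower without overlap (-0.10 ± 0.30 untreated and -1.17 ± 0.31 with ATRA). ARF4, a GTPase of Golgi traffic, was above 0 in both states (0.53 ± 0.24 untreated and 0.37 ± 0.24 with ATRA), and MAP4, a microtubule-associated protein, below (-0.23 ± 0.30 untreated and -0.68 ± 0.30 with ATRA). The 10 zinc finger genes had medians of -0.42 and -0.64, with 9 and 10 below 0. ZNF445, which maintains imprinted methylation, stood at 71.6, 30.7 and 60.4 CPM in the untreated control, 32.4, 28.7 and 35.1 in the untreated knockout, 53.2, 58.8 and 51.1 in the control with ATRA and 21.5, 29.8 and 23.98 in the knockout with ATRA. Control untreated 2 lay among the untreated knockouts, and with ATRA the groups did not overlap (-0.76 ± 0.27 untreated and -1.11 ± 0.27 with ATRA). ZNF589 and ZBTB47 had -0.83 ± 0.39 untreated and -0.59 ± 0.39 with ATRA, and -0.19 ± 0.29 untreated and -0.46 ± 0.29 with ATRA.

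Across the 12 role lists, 11 had a median below 0 in each state, and in 6 the 6 knockouts lay below the 5 controls in median level. Those 6 are DNA repair, chromatin, tumour suppressors, ubiquitin, trafficking and zinc fingers, for which control untreated 2 stood at -0.25, -0.55, -0.28, -0.24, -0.28 and -0.45. Of the 5 lists of partner genes outside the stretch this was so in 0. The role lists hold only genes of a stretch selected for its low ratios, and the partner lists do not. Nothing is therefore read from the difference between them. The partners of VHL had medians of 0.35 and 0.02 (4 genes), those of BAP1 0.06 and 0.06 (9 genes) and those of beta-catenin 0.13 and -0.19 (10 genes). The partner list for DNA repair lay lower than these, with medians of -0.52 and -0.61, 6 of 7 genes below 0 in each state, and 2 and 1 called lower. Within the stretch the ratio varied little with what was known of a gene: across members the rank correlation with GC content was -0.14 and -0.16, with gene length -0.14 and -0.16, with mean CPM 0.09 and 0.05 and with position 0.02 and 0.02 (untreated and ATRA, 300 members for GC content and 304 otherwise, from the same 12 libraries). Members are neighbours and are not independent of each other.

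The response to ATRA was not used in choosing the members, and no member passed its edgeR test. In the control 0 of 304 members were called by edgeR (background 0%), while 64 had an unadjusted p under 0.05 (21.1%, background 21.3%), 47 higher and 17 lower. DESeq2 called 28 (9.21%, background 8.92%). In the knockout 0 were called (background 0.0788%), with 39 at an unadjusted p under 0.05 (12.8%, background 11.6%), 13 higher and 26 lower, and DESeq2 called 8 (2.63%, background 2.28%). The members' median response was 0.10 in the control, against -0.07 on the rest of chromosome 3, and -0.03 in the knockout, against -0.01. Without control untreated 2 the control medians were -0.09 and -0.01, so that library decides the direction. Leaving out control untreated 1 gave 44 calls in the control (14.5%, background 14.1%), and leaving out control ATRA 2 gave 38 (12.5%, background 12.9%).

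The smallest adjusted p of a member in the control was 0.0593. TDGF1 was at 0.0593 with a log2 change of -4.07 ± 0.83 (SE), and every control library with ATRA was below every untreated one. In the knockout its change was -1.71 ± 0.76 (edgeR adjusted p = 0.425). RARB had 4.21 ± 1.00 in the control (edgeR adjusted p = 0.0711), higher in 3 of 3 libraries with ATRA than in any untreated one, and 1.38 ± 0.87 in the knockout (edgeR adjusted p = 0.606). RHOA had 1.11 ± 0.31 and 0.04 ± 0.30 (edgeR adjusted p = 0.0829 and 0.979). None of these passed the threshold.

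The genotypes did not differ detectably in their response gene by gene. The interaction called 0 members (background 0%), with 14 at an unadjusted p under 0.05 (4.61%, background 6.23%) of which 13 were below 0, and DESeq2 also called 0 (background 0.0525%). The smallest adjusted p was 0.686. The members' median interaction was -0.15, against 0.02 on the rest of chromosome 3. The interaction equals the difference between the ratios in both states, on which the stretch was selected, so nothing is read from its direction. It also includes control untreated 2 among the untreated controls.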

How the data were processed

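The authors deposited raw counts per gene as whole numbers, 1 column per library. Per the labels' protocols, the library kit keeps strand and selects mRNA. The submitters' processing notes name the builds hg19 and GRCh37 and the tools DESeq2, featureCounts, Subread, TopHat2 and bcl2fastq. Their versions, the annotation and the strand setting were not given in the sources used here, so overlapping and antisense genes may share reads. All 12 columns were used. Genes passing filterByExpr (minimum count 10; 19130 genes) were fitted in edgeR 4.0.16 (R 4.3.3, quasi-likelihood test, 1 coefficient per group, TMM), with each library's GC trend (lowess, span 0.3) as an offset. Gene GC content came from GENCODE v44 on GRCh38, matched by symbol, and no coordinates were taken from it. CPM are scaled by TMM and the GC trend, with 0.5 added before taking log2 for levels. The steps were tested on simulated data. Alternatives included DESeq2 1.42.0 and limma-voom (limma 3.58.1). Members, lists and tests were chosen with earlier results of these data known. Named genes are those at and beside the ends, per list the 3 members with the highest mean CPM, 8 well-known genes of the arm, and the 5 lowest and 5 highest ratios averaged over both states, leaving out members with clone, LINC or antisense names. EOMES was named after its values were seen. Some genes chosen this way were left out.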

Additional observations from a re-analysis of the deposited data

Results flagged for a closer look

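In each genotype the 6 libraries were compared for a value far from the nearest other, over 28 groups in all. These covered the level of the stretch and single windows of it, and windows beyond the stretch were not compared. Chance flags about 1 in 20 such groups where they are independent. These groups are not, since they share libraries and the level of the stretch uses the genes of its windows. All 7 values that stood apart belonged to control untreated 2. The level of the stretch relative to the rest of chromosome 3 was -0.249 there, against 0.22 to 0.36 in the other 5 controls. Its window medians stood apart at -0.267 from TRNT1 to CRELD1, -0.310 from PRRT3 to CHCHD4, -0.374 from TMEM43 to SATB1, -0.318 from RAB5A to UBP1, -0.234 from RPL14 to ZDHHC3 and -0.164 from GPX1 to RASSF1. No knockout library stood apart in this way.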

How the results depend on the processing

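The difference between the stretch and the rest of chromosome 3 was -0.26 untreated and -0.49 with ATRA. Without GC correction it reversed to 0.26 untreated and was -0.28 with ATRA, also -0.28 with control untreated 2 left out as well. Against the 17 other genes of the short arm it was -0.84 and -0.92, and as a mean over genes -0.56 with ATRA. Leaving out 1 library at a time gave -0.46 (without control untreated 2) to -0.16 (without control untreated 1) untreated and -0.53 to -0.45 with ATRA. The other alternatives (RLE scaling, DESeq2, limma-voom, no filter, other CPM minimums, a wider GC trend) moved neither value beyond the spread between libraries. That spread was 0.32 untreated and 0.055 with ATRA, and its knockout part includes the near-identical pairs. The untreated spread is larger than the untreated difference itself, so this check could hardly fail there. Members called in untreated cells numbered 62, but 111 without GC correction, 2 with the near-identical knockout pairs summed, 40 without the 2 knockout libraries low in COL3A1 and 15 to 84 leaving out 1 library (22 without control untreated 3, 16 and 15 without knockout untreated 1 and 2). With ATRA they numbered 59, but 93 by DESeq2, 2 with the pairs summed, 29 without those 2 libraries and 8 to 76 leaving out 1 library (8 without knockout ATRA 1 or 3, 24 without control ATRA 2, 32 to 33 without knockout untreated 1 or 2 or knockout ATRA 2). Calls over all 11424 genes of at least 5 CPM changed too. In untreated cells they were 2039, but 4670 without GC correction, 89 with the pairs summed and 380 to 3402 leaving out 1 library. With ATRA they were 808, but 1590 by DESeq2, 59 with the pairs summed and 158 to 1172 leaving out 1 library. Without the 2 knockout libraries low in COL3A1 they were 1298 and 616. All calls in that setting rest, for the knockout, on the near-identical pairs alone. For the ATRA response, 0 calls among members became 28 by DESeq2, 23 without the filter and 0 to 44 leaving out 1 library in the control. In the knockout 0 calls became 8, 3 and 0 to 3. The interaction gave 0 to 3 leaving out 1 library (3 without control untreated 1). Over all genes these response calls were 1019, 737 and 0 to 1612 in the control and 260, 130 and 0 to 132 in the knockout. Those of the interaction were 0 to 32 leaving out 1 library. The sample numbers do not pair the libraries: of 18 same-numbered pairs across groups 3 had a correlation of deviations above 0.1, in a range of -0.68 to 0.64. With the replicate block the differences were -0.25 and -0.49, and 47 and 28 members were called, beside 1553 and 474 of all genes. Depth limits genes near 0.1 CPM, and the near-identical knockout libraries, the GC trend and control untreated 2 limit every count of calls more than depth does.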
